A study of Mus musculus with 8 samples.

Results

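The imprinted growth genes H19, Igf2, Dlk1, Meg3, Peg3, Mest, Cdkn1c, Plagl1, Grb10 and Ndn were taken by symbol from the count tables of sorted bone marrow populations. They were 10 of the 49315 genes counted, and all 10 were found. RNA-seq had been performed on 7 populations sorted from mouse bone marrow, named clusters 1 to 7, and on an input sample of bone marrow cells. The labels give wild-type C57BL/6J mice at 6 weeks of age and bone marrow stromal cells as the cell type. The paper's Methods name C57BL/6JJcl among the mice used. The sorted populations were depleted of cells carrying CD31, CD45 or Ter119, the surface proteins of endothelial, haematopoietic and erythroid cells. The paper identified the clusters among cells positive for Sca-1 and PDGFR-α, and its sorting antibodies included 1 against each. The populations were separated by combinations of CD24, CD39, CD54, Sca-1 and Ly-6C. Each population had 1 library, and the number of mice pooled in each was not given in the sources used here. No spread between replicates could therefore be measured, no difference was tested, and every interval below is a 95% interval that covers counting error only. Total counts on genes were 24205863, 25349917, 27102715, 32549319, 12833648, 31669132 and 33238133 in clusters 1 to 7 and 20162876 in the input.

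Imprinted genes are transcribed mainly from the copy inherited from one parent, which is fixed by DNA methylation laid down in the germ line. Many lie in domains where a protein-coding gene of one parental allele neighbours a long noncoding RNA of the other, as Igf2 with H19 and Dlk1 with Meg3. Paternally expressed members such as Igf2 are in general known to promote fetal growth and maternally expressed ones such as Cdkn1c and Grb10 to restrain it, and most are turned down in tissues after birth. Counts per gene do not separate the parental alleles, so imprinting itself was not measured. In bulk RNA, fewer cells that express a gene and less of its RNA per cell cannot be told apart.

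The genes differed widely between the sorted populations. Cdkn1c, H19, Peg3, Plagl1 and Grb10 were highest in cluster 2, Igf2, Dlk1 and Mest in cluster 4, and Meg3 and Ndn in cluster 1, although with the TMM scaling described below cluster 5 was highest for Igf2 and Dlk1 and cluster 6 for Grb10. Cluster 3 was lowest for 7 of the 10, beside 8.11% of all genes tested, a count added after the data were seen. Cluster 6 divided the members, with Cdkn1c, Peg3 and Grb10 at their second-highest level and Igf2, Meg3 and Ndn at or near their lowest. The neighbours Meg3 and Dlk1 did not follow each other, and their ratio ran from 0.482 in cluster 4 to 17.5 in cluster 3.

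Several members are also hosts of microRNAs, which are shown because they are cut from the same primary transcripts that the host counts describe. RefSeq placed 9 mature microRNAs inside 4 members on GRCm38.p6, and no seed was shared among them. The microRNA genes themselves had no counts in any library, except for 2 counts of Mir335 in cluster 4, so that the levels below are those of the hosts. Both sequences within H19 and one each within Igf2, Mest and Meg3 are given 5′ to 3′, with the seed, bases 2 to 8, in capitals.
mmu-miR-675-5p (H19 exon, chr7:142577112-142577133, minus strand): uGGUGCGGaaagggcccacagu
mmu-miR-675-3p (H19 exon, chr7:142577078-142577099, minus strand): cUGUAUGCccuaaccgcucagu
mmu-miR-483-3p (Igf2 intron, chr7:142654932-142654952, minus strand): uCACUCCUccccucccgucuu
mmu-miR-335-5p (Mest intron, chr6:30741314-30741336, plus strand): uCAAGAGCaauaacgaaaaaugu
mmu-miR-770-5p (Meg3 exon, chr12:109563710-109563731, plus strand): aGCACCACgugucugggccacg

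PLAGL1, the protein of one member, is a zinc finger transcription factor, and other members such as Cdkn1c and Igf2 are among the genes it is known to act on. The letters GGGGCCCC, the core of its reported binding site, were therefore searched on both strands in the RefSeq promoters of GRCm38.p6, which run from 250 bases before to 50 bases after a gene's start. Promoters of 8 members, 15 in all, were searched, and those of H19 and Cdkn1c were not analysed here. Peg3 was the only one of the 8 with the core, at base 50 of its window, and 1.08% of the 32851 promoters of all genes held it. Of 3 further motifs, TATAAA was present at bases 222 and 226 of the first Meg3 promoter (13.6% of all promoters), CACGTG in the Plagl1 promoter (7.15% of all) and AAGATGGC in none of the 15 (2.75% of all). The promoters of Peg3, of Meg3 and of its neighbour Dlk1 are shown with matches to GGGGCCCC or TATAAA in capitals. The overlapping matches of Meg3 read TATAAA on opposite strands, and a match of letters is not a binding site.
Peg3 (chr7:6730370-6730669, minus strand): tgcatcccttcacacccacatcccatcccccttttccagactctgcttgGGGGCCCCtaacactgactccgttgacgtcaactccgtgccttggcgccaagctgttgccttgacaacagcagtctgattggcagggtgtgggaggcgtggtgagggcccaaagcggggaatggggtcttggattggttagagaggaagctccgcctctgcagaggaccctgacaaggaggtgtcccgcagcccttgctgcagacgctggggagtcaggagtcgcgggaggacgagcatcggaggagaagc
Meg3 (chr12:109540746-109541045, plus strand): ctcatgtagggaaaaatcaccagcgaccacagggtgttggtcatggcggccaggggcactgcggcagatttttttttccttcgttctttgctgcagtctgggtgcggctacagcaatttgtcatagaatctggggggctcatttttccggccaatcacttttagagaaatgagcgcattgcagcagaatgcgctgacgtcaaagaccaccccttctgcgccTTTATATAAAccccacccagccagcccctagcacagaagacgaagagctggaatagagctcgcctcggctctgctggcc
Dlk1 (chr12:109452573-109452872, plus strand): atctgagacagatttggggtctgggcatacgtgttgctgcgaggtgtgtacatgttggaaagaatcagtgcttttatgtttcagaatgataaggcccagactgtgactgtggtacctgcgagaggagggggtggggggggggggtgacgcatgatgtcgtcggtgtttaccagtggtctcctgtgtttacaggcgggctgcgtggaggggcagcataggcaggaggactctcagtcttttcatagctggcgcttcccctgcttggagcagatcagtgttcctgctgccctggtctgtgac
Guanine and cytosine made up 61.3% of the Peg3 promoter, 53.7% of this Meg3 promoter and 55.7% of the Dlk1 promoter, beside a median of 52.7% over all promoters. The first Grb10 promoter reached 80% and the Plagl1 promoter 70.7%.

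Levels are given as RPKM, reads per kilobase of exon, scaled to the total count on genes. This also allows levels to be compared between genes, given the exon lengths used. Igf2 encodes an insulin-like growth factor that promotes fetal growth (ENSMUSG00000048583, chr7:142650766-142666816, minus strand, GRCm38). Its RPKM was 6.03, 12.2, 0.98, 20.1, 18, 1.27 and 8.75 in clusters 1 to 7 and 2.09 in the input. Clusters 4 and 5 were thus high and clusters 3 and 6 low, in RPKM below the input. The highest sorted library was 20.5-fold above the lowest (interval 17.5 to 24.3). Cluster 4 exceeded cluster 5 by 1.12-fold (1.05 to 1.19) in RPKM, but this order turned when the libraries were scaled by TMM factors, which left cluster 4 at 0.847 of cluster 5. TMM, a scaling factor of edgeR that compares the bulk of genes between libraries, raised cluster 5 most among the sorted libraries. In that library 34.8% of all counts fell on 3 loci (Rn18s-rs5, Lars2 and mmu-mir-689-2). TMM raised the log2 levels of cluster 5 by 0.44 and of cluster 6 by 0.37, lowered those of cluster 1 by 0.14 and of the input by 0.68 (log2 shift -0.68), and moved the other libraries by at most 0.05. Igf2 in cluster 6 was then 1.26-fold above the input (1.04 to 1.51). The receptors of the ligand, singled out after their values were seen, spanned a narrower range. Igf1r, the signalling receptor, lay between 1.38 RPKM in cluster 6 and 3.38 in cluster 2, and Igf2r, which clears the ligand, between 4.63 in cluster 3 and 11.6 in cluster 1.

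H19 is a long noncoding RNA of the maternal allele, 72.6 kb from Igf2 and under the same downstream enhancers (ENSMUSG00000000031, chr7:142575529-142578143, minus strand). Its RPKM was 8.64, 52.4, 1.87, 43.6, 19.1, 8.64 and 8.97 in clusters 1 to 7 and 5.52 in the input. Clusters 2 and 4 stood above the rest, cluster 3 was the only sorted library below the input, and clusters 1, 6 and 7 were not separated by counting error in RPKM. With TMM scaling cluster 6 stood 1.29-fold above cluster 7 (1.15 to 1.43). Cluster 2 was 28.1-fold above cluster 3 (23.4 to 34). The levels of H19 and Igf2 had r = 0.82 over the 7 sorted libraries, a description of log2(RPKM + 1) in libraries that differ in depth and composition. Their ratio was not even over the libraries. H19 was 1.43, 4.29, 1.9, 2.17, 1.06, 6.78 and 1.03 times the RPKM of Igf2 in clusters 1 to 7 and 2.64 times in the input. In clusters 5 and 7 the intervals, 0.958 to 1.17 and 0.937 to 1.12, included 1, whereas in cluster 6 the interval was 5.82 to 7.91. Between clusters 2 and 6 the level differed 9.57-fold for Igf2 (8.34 to 11) and 6.06-fold for H19 (5.57 to 6.61). A ratio within a library does not depend on its depth or scaling. Its place above or below 1 does depend on the exon lengths used, 2372 bases for H19 and 5723 for Igf2.

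**Figure D1:**
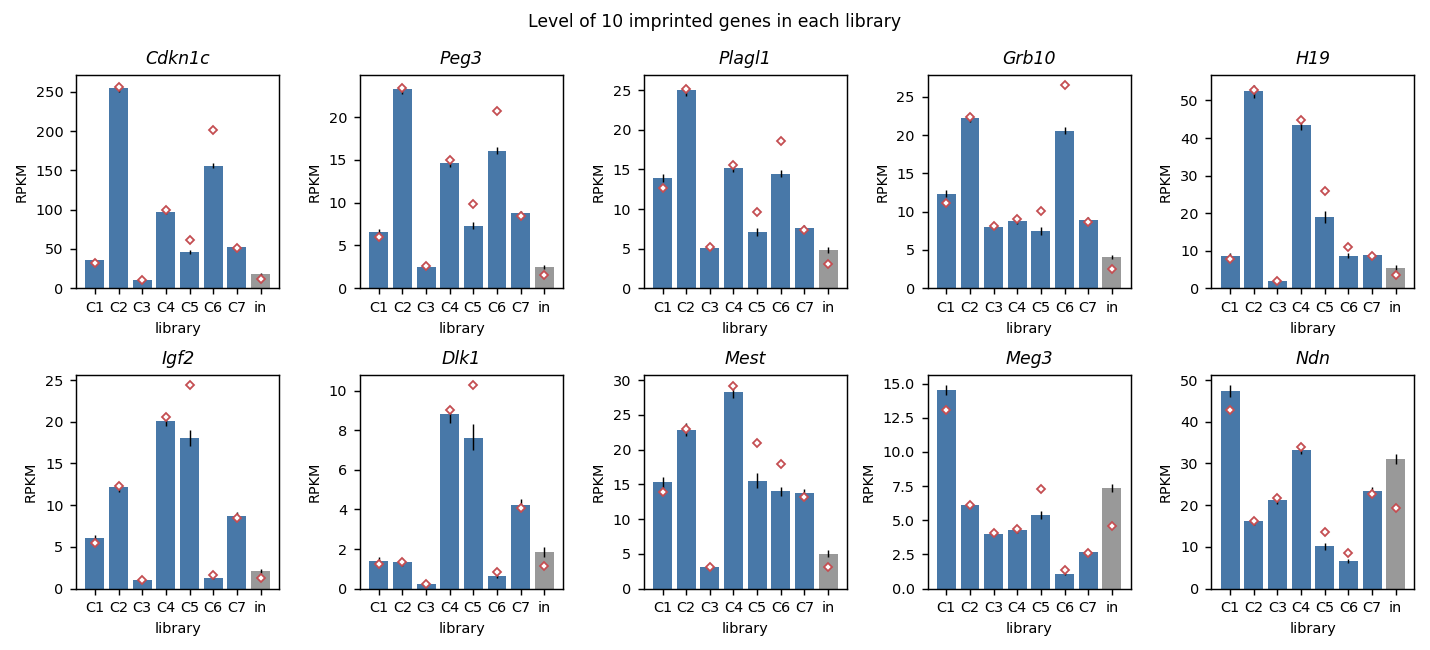
Level of each member in the 7 sorted libraries (C1 to C7, blue bars) and the input (in, grey bars), in RPKM by total count on the vertical axis, which starts at 0, with the exact 95% Poisson interval of the count as a black line and the TMM-scaled RPKM as an open diamond. Cdkn1c, Peg3 and Grb10 are highest in C2 and C6, Plagl1 in C2, Igf2 and Dlk1 in C4 and C5, and Meg3 and Ndn in C1.

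Cdkn1c encodes p57, an inhibitor of cyclin-dependent kinases that restrains cell division (ENSMUSG00000037664, chr7:143458339-143461050, minus strand). Its RPKM was 35.8, 255, 10.1, 97.1, 45.5, 156 and 52.6 in clusters 1 to 7 and 18.4 in the input. Cluster 2 was highest, clusters 6 and 4 followed, and cluster 3 was the only sorted library below the input. The input exceeded cluster 3 by 1.82-fold in RPKM and by 1.12-fold with TMM scaling. The highest library was 25.2-fold above the lowest (23.2 to 27.5). Cluster 2 exceeded cluster 6 by 1.63-fold (1.59 to 1.67), or by 1.27-fold with TMM scaling. Cdkn1c was the most abundant member in RPKM in clusters 2, 4, 5, 6 and 7, whereas Ndn was more abundant in clusters 1 and 3 and in the input. The related inhibitors Cdkn1a (p21) and Cdkn1b (p27), which are not imprinted, spanned narrower ranges, from 136 to 398 RPKM and from 1.05 to 4.7 RPKM, and were highest in clusters 4 and 1, not in cluster 2.

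Grb10 encodes an adaptor protein that binds the insulin and IGF receptors and dampens their signal (ENSMUSG00000020176, chr11:11930508-12038683, minus strand). Its RPKM was 12.3, 22.3, 8.04, 8.79, 7.44, 20.6 and 8.98 in clusters 1 to 7 and 4.07 in the input. Clusters 2 and 6 stood above the others, every sorted library exceeded the input, and this was the narrowest range among the members (2.99-fold, 2.79 to 3.22). The end points depended on scaling. Cluster 2 was 1.08-fold above cluster 6 (1.04 to 1.12) in RPKM but 0.843 of it with TMM scaling, and the lowest library was cluster 5 in RPKM and cluster 3 with TMM. Irs2, which relays the signal of the same receptors, was highest in cluster 4 (68.4 RPKM) and lowest in cluster 6 (16.6 RPKM).

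Plagl1 and Peg3 encode zinc finger proteins read from the paternal allele. Plagl1 can arrest the cell cycle (ENSMUSG00000019817, chr10:13060504-13131694, plus strand). Its RPKM was 13.9, 25, 5.1, 15.2, 7.12, 14.4 and 7.59 in clusters 1 to 7 and 4.8 in the input. Cluster 2 was highest by 1.65-fold over cluster 4 (1.58 to 1.72), and cluster 3 and the input were not separated by counting error. Peg3 is a large zinc finger gene known for effects on growth and maternal behaviour (ENSMUSG00000002265, chr7:6703892-6730431, minus strand). Its RPKM was 6.62, 23.3, 2.54, 14.6, 7.31, 16.1 and 8.78 in clusters 1 to 7 and 2.48 in the input. The order of the sorted libraries was that of Cdkn1c throughout, with cluster 2 first and cluster 3 last. The range was 9.15-fold for Peg3 (8.54 to 9.8) and 4.91-fold for Plagl1 (4.6 to 5.25).

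Dlk1 encodes a transmembrane protein of the Delta-like family that restrains adipocyte differentiation (ENSMUSG00000040856, chr12:109452823-109463336, plus strand). Its RPKM was 1.39, 1.34, 0.228, 8.82, 7.64, 0.631 and 4.24 in clusters 1 to 7 and 1.83 in the input. Clusters 4, 5 and 7 lay above the input in RPKM and the other 4 below it. With TMM scaling clusters 1 and 2 were also above it (1.26 and 1.35 against 1.15 TMM-scaled RPKM), though not separated from it by counting error. Cluster 3, with 35 counts, was lowest, and cluster 4 was 38.6-fold above it (27.7 to 55.7), the widest ratio of RPKM among the members. As for Igf2, the top place passed from cluster 4 to cluster 5 with TMM scaling, by which cluster 4 was 0.875 of cluster 5. On RPKM + 1, which is less sensitive to levels near 0, the range of Dlk1 was 7.99-fold and was exceeded by those of Cdkn1c (23-fold), H19 (18.6-fold) and Igf2 (10.7-fold).

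Meg3 is a long noncoding RNA of the maternal allele, 77.7 kb from Dlk1 (ENSMUSG00000021268, chr12:109541001-109571726, plus strand). Its RPKM was 14.5, 6.11, 4, 4.25, 5.38, 1.05 and 2.71 in clusters 1 to 7 and 7.35 in the input. Only cluster 1 exceeded the input in RPKM, and cluster 6 was lowest, 13.9-fold below cluster 1 (12.7 to 15.1). The correlation of Meg3 with Dlk1 over the 7 sorted libraries was r = 0.09. The RPKM of Meg3 was 10.4, 4.57, 17.5, 0.482, 0.703, 1.66 and 0.638 times that of Dlk1 in clusters 1 to 7 and 4.01 times in the input. The ratio was thus above 1 in clusters 1, 2, 3 and 6 and below 1 in clusters 4, 5 and 7, the libraries in which Dlk1 was highest. Where the ratio meets 1 depends on the exon lengths used, 18089 bases for Meg3 and 5657 for Dlk1. Counts of Meg3 exceeded those of Dlk1 in every library, with 2501 against 1624 in cluster 4. The intervals of the ratio on either side of 1 did not overlap, the nearest being 1.36 to 2.05 in cluster 6 and 0.636 to 0.779 in cluster 5. Unnamed genes on the opposite strand share 1228 exon bases with Meg3 and 625 with Cdkn1c, with 0 and 18 counts over the 8 libraries.

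**Figure D2:**
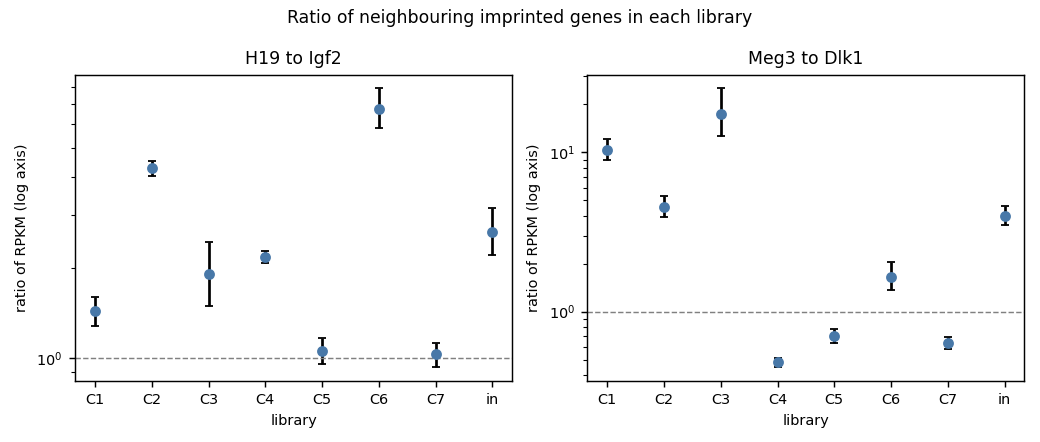
Ratio of RPKM of H19 to Igf2 and of Meg3 to Dlk1 (vertical log axes) in each sorted library (C1 to C7) and the input (in), with exact binomial 95% intervals of the counts as bars and a dashed line at 1. H19 to Igf2 stays at or above 1 and peaks at 6.78 in C6, while Meg3 to Dlk1 crosses 1, with 17.5 in C3 and 0.482 in C4.

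Mest encodes a membrane protein of the hydrolase fold, read from the paternal allele and abundant in embryonic mesoderm (ENSMUSG00000051855, chr6:30723547-30748465, plus strand). Its RPKM was 15.3, 22.8, 3.09, 28.3, 15.5, 14 and 13.7 in clusters 1 to 7 and 5.02 in the input. Cluster 4 was highest, 1.24-fold above cluster 2 (1.18 to 1.31), and cluster 3 was lowest and in RPKM the only sorted library below the input. With TMM scaling cluster 3 and the input were not separated (input over cluster 3 1.00, 0.863 to 1.16). The range was 9.18-fold (8.2 to 10.3). Mest shares 912 exon bases with Copg2 on the opposite strand, and whether strand was used in counting was not given in the sources used here. Copg2 was at 0.0521 to 0.369 times the RPKM of Mest in the sorted libraries.

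Ndn encodes necdin, a protein of the MAGE family known to restrain proliferation (ENSMUSG00000033585, chr7:62346569-62350262, plus strand). Its RPKM was 47.3, 16.1, 21.2, 33.2, 10.1, 6.59 and 23.5 in clusters 1 to 7 and 31.1 in the input. Clusters 1 and 4 were high, and cluster 6 was lowest, 7.18-fold below cluster 1 (6.65 to 7.76). Ndn and Meg3 were the only members for which no more than 2 sorted libraries exceeded the input in RPKM. With TMM scaling, which lowered the input, this number was 4 for Ndn and 3 for Meg3. The share of all genes with so few libraries above the input was not counted, so these numbers only describe the members.

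All 10 members passed RPKM above 2 in at least 1 sorted library, and all 10 differed by more than 2-fold between their highest and lowest sorted library on RPKM + 1. The same held for 70.6% of the 12360 genes that passed the filter, and with TMM scaling for 10 of 10 members beside 56.8% of genes. Since most genes passed this fold, the size was compared as well. The median log2 ratio of the members was 2.88 beside 1.26 for all genes tested, and 9 of 10 members beside 15.7% of genes exceeded 4-fold, the exception being Grb10. The members were chosen with earlier results of these data known, so no excess is read from these sizes. The ratio of 98.8% of genes was smaller than that of Cdkn1c, and that of 63.4% was smaller than that of Grb10. One call of a single library was made on the members. Meg3 in cluster 1 was more than 2-fold above each of the other 6 sorted libraries, 2.18-fold above the next, beside 5.40% of genes with such a library, and this call was lost with TMM scaling, where no member but 6.1% of genes passed.

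**Figure D3:**
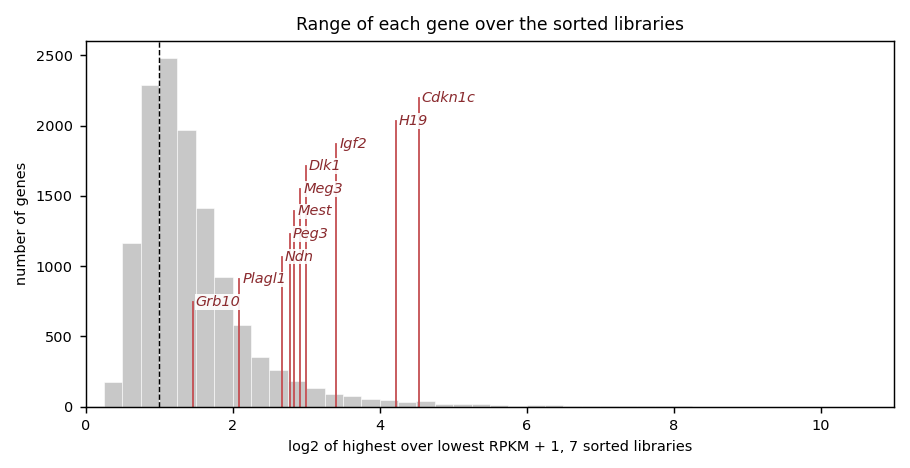
Number of genes (vertical axis) by the log2 of highest over lowest RPKM + 1 over the 7 sorted libraries (horizontal axis), for the 12360 genes above the filter in grey, with the 10 members as red lines whose heights only set the labels apart and a dashed line at 2-fold. Grb10 lies near the middle of all genes, and Cdkn1c at 4.53 and H19 at 4.22 lie farthest to the right of the members.

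The highest level of 5 members was in cluster 2 (22.8% of all genes tested), of 3 in cluster 4 (8.95%) and of 2 in cluster 1 (21.3%). None was highest in cluster 3 (9.85%), cluster 5 (4.73%), cluster 6 (7.10%) or cluster 7 (25.3%). The lowest level of 7 members, H19, Igf2, Dlk1, Peg3, Mest, Cdkn1c and Plagl1, was in cluster 3 (8.11% of all genes), of 2, Meg3 and Ndn, in cluster 6 (25.5%), and of Grb10 in cluster 5 (46.3%). The count of lowest libraries was added after the data were seen. With TMM scaling cluster 3 was lowest for 8 members beside 12.1% of genes, and without the cluster 5 library for 8 beside 13.9%. With TMM the highest library was cluster 2 for 4 members (19.9% of genes), cluster 1 for 2 (9.98%), cluster 5 for 2 (11.6%), cluster 4 for 1 (10.4%) and cluster 6 for 1 (20.9%).

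Against the input, no member exceeded 2-fold in all 7 sorted libraries on RPKM + 1, a call made for 0.472% of the 19088 genes above the filter in any library. With TMM scaling Grb10 alone passed, beside 2.15% of genes. No member was below 0.5-fold of the input in all 7, a call made for 31.2% of genes. Peg3, Plagl1 and Grb10 were above the input in each of the 7 sorted libraries at any fold, though cluster 3 was not separated from it by counting error for Peg3 and Plagl1 in RPKM. The share of all genes above the input at any fold was not counted, so no excess of members is read from this. With TMM scaling cluster 3 was separated from the input, 1.67-fold above it for Peg3 (1.51 to 1.84) and 1.72-fold for Plagl1 (1.57 to 1.89). With TMM scaling, which raised cluster 6 and lowered the input, Igf2 in cluster 6 (1.64 against 1.31 TMM-scaled RPKM) passed from below the input to above it. Dlk1 did so in clusters 1 and 2 (1.26 and 1.35 against 1.15), though neither library was separated from the input by counting error (ratio 1.1, 0.9 to 1.35, in cluster 1, and 1.17 in cluster 2). Meg3 in clusters 2 and 5 (6.14 and 7.27 against 4.6) and Ndn in clusters 3 and 7 (21.6 and 22.7 against 19.4) also passed above the input. The members together took 0.169% of the counts of cluster 2, but only 0.0342% of those of cluster 3 and 0.0448% of the input counts, with the other sorted libraries between 0.065% and 0.117%.

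Among the 45 pairs of members, 9 had r above 0.8 and 10 had r below 0 over the 7 sorted libraries, with a median of 0.33. Without the cluster 5 library 14 pairs had r above 0.8 and the median was 0.47. These values describe the likeness of log2(RPKM + 1) in 7 points that share libraries, depth and composition, and none was tested. Pairs of all genes were not counted in the same way, so no excess of like pairs is read from the members. Peg3 and Cdkn1c were most alike, with r = 0.995, and each was the gene closest to the other among the 8058 genes searched, although Peg3 lies far from Cdkn1c on chromosome 7. Plagl1 was like both (0.87 with Peg3, 0.86 with Cdkn1c). H19 was most like Mest (0.91), and Igf2 was most like Dlk1 (0.88), a gene on another chromosome. Meg3 and Ndn, both highest in cluster 1 and lowest in cluster 6, had r = 0.69, and Dlk1 and Grb10 had -0.51.

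Beyond the members, the genes closest to each were as follows. Each was picked as closest among 8058 genes over 7 libraries. The closest r of other genes was not counted, so no shared regulation is read from these values. Ikzf4, a transcription factor of the Ikaros family, had r = 0.992 with Peg3, and Plekhb1 had 0.989 with Cdkn1c. Kcns1, a potassium channel subunit, was closest to both H19 (0.933) and Mest (0.964), with Pcp4 (0.932) next for H19 and Scube2 (0.959) next for Mest. Igf2 was closest to Crabp1, which binds retinoic acid (0.953), and Mfap4, a protein of microfibrils (0.941). Dlk1 was closest to Asb4 (0.956), itself an imprinted gene read from the maternal allele, and to Ccl19-ps1 (0.955). Meg3 was closest to Prph, a neuronal intermediate filament (0.980), and Upf2, a factor of nonsense-mediated decay (0.978). Plagl1 was closest to Casc4 (0.954) and Fam131a (0.952). Grb10 was closest to Gfpt1, the first enzyme of hexosamine synthesis (0.996), and Fdft1, squalene synthase (0.980), and Ndn to the sugar transporter Slc50a1 (0.990) and to Mtch1 (0.985).

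Rian and Mirg, noncoding RNAs beyond Meg3 on the same strand, had the same highest and lowest sorted libraries as Meg3, though in RPKM Rian was higher still in the input. With TMM scaling cluster 1 was the higher for Rian (2.96 against 2.6). Rian was at 3.27, 1.68, 0.754, 1.64, 1.38, 0.244 and 0.907 RPKM in clusters 1 to 7 and 4.16 in the input. Its ratio to Meg3 was 0.188 to 0.385 in the sorted libraries, a narrow range beside that of Meg3 to Dlk1, and 0.565 in the input (0.53 to 0.602). Mirg ran from 0.165 RPKM in cluster 6 to 2.18 in cluster 1. Dio3, which inactivates thyroid hormone and lies at the far end of the domain, was highest in cluster 7 (2.96 RPKM) and had 1 count in cluster 3, against 200 counts in cluster 7. Rtl1, a retrotransposon-derived gene between Dlk1 and Dio3, was at 1.53 RPKM in the input and at 0.0199 to 0.442 in the sorted libraries.

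Phlda2, a maternally expressed gene that limits placental growth, lies 40.5 kb from Cdkn1c. It was at 0.737, 11.8, 0.263, 2.14, 1.88, 6.28 and 0.644 RPKM in clusters 1 to 7 and 2.61 in the input. Clusters 2 and 6 were again highest and cluster 3 lowest, as for Cdkn1c. Phlda2 was at 0.0122 to 0.0465 times the RPKM of Cdkn1c in the sorted libraries. Of the other genes of that domain, Cd81, a widely expressed tetraspanin, and Osbpl5 were highest in cluster 7, Slc22a18 in cluster 4 and Tssc4 in cluster 1. Kcnq1ot1, the noncoding RNA that silences the domain on the paternal allele, was at 0.305 to 1.17 RPKM in the sorted libraries.

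Usp29 beside Peg3 and Magel2 beside Ndn were near 0 in the sorted populations although Peg3 and Ndn were not. Magel2 was low in the input as well (0.193 RPKM). Usp29, whose start is 147 bases from that of Peg3 on the opposite strand, had 3 to 65 counts in the sorted libraries and 486 in the input. It was at 0.539 times the RPKM of Peg3 in the input (0.478 to 0.606) and at no more than 0.0142 times in any sorted library. Magel2, 26.7 kb from Ndn, had no count in clusters 3, 5 and 7, at most 30 counts in the other sorted libraries and 18 in the input. Snrpn had no count in 6 sorted libraries, 2 in cluster 3 and 184 in the input, but it overlaps Snurf and its counts are uncertain. Peg12 was at 2.18 RPKM in the input and at 0.194 to 0.657 in the sorted libraries. Copg2 was at 1.27 times the RPKM of Mest in the input (1.12 to 1.44), above its ratio in any sorted library.

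Of 22 other imprinted genes read from the paternal allele, 9 passed the RPKM filter and 7 exceeded 2-fold between sorted libraries, and of 23 read from the maternal allele, 15 passed and 12 exceeded 2-fold. With TMM scaling these were 6 of 9 and 8 of 14. The background of 70.6%, or 56.8% with TMM, stands beside these counts too, and no excess is read from them. The widest ranges of RPKM + 1 on the paternal side were those of Slc38a4, an amino acid transporter (7.11-fold), Dio3 (3.89-fold) and Sgce, a sarcoglycan (3.24-fold). Slc38a4 was at 8.5 RPKM in cluster 6, 4.75 in cluster 2 and at most 1.43 in the other sorted libraries. On the maternal side they were those of Phlda2 (10.2-fold), Atp10a, a phospholipid flippase (3.46-fold), and Rian (3.44-fold). The members' median was 7.38-fold, beside 2.21-fold for the paternal and 2.73-fold for the maternal genes that passed. Because the members and lists were chosen with earlier results of these data known, this difference only describes them.

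Of 16 binding partners and targets of the members, 11 passed the filter and 8 exceeded 2-fold, or 4 of 11 with TMM scaling, led by Irs2 (3.93-fold), Cdkn1a (2.91-fold) and Cdkn1b (2.78-fold). Of 12 genes that maintain imprints, 9 passed and 3 exceeded 2-fold, or 2 of 8 with TMM, beside the same 70.6% and 56.8% of all genes. The 3 were the DNA methyltransferase Dnmt1 (2.43-fold, highest in cluster 6), the insulator protein Ctcf (2.35-fold, highest in cluster 1) and Uhrf1, which brings Dnmt1 to DNA (2.05-fold, highest in cluster 7). Ctcf, which binds the control region between H19 and Igf2, was at 18.3, 16.4, 11.7, 10.9, 10.4, 7.19 and 11.7 RPKM in clusters 1 to 7 and 12.1 in the input.

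The labelled cell type was checked by markers. All 8 stromal markers, among them Pdgfra, Pdgfrb, Cxcl12 and Col1a1, exceeded 2 RPKM in every library. Pdgfra and the gene of Sca-1, also among the 8, encode antigens used in the sorting and are no independent check. Markers of other cells were not evenly spread over the libraries, and those of chondrocytes moved with several members. The summed RPKM of the 5 chondrocyte markers was 577, 11173, 1112, 5329, 617, 13877 and 1570.2 in clusters 1 to 7 and 951 in the input. All 5 exceeded 2 RPKM in clusters 2, 4 and 6 and 4 of 5 elsewhere, and none was at 0. The most abundant in clusters 2, 4 and 6 was Col2a1, at 8611, 3046 and 10541 RPKM, whereas it was at 192 or less in the other libraries, where Comp led with 320.4 to 1326 RPKM. Clusters 2, 6 and 4 are also the first 3 places of Cdkn1c and Peg3. H19 and Igf2 departed from the marker sum in cluster 6, where the sum was highest and their levels were 8.64 and 1.27 RPKM. The part of cartilage cells in these levels was not tested.

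**Figure D4:**
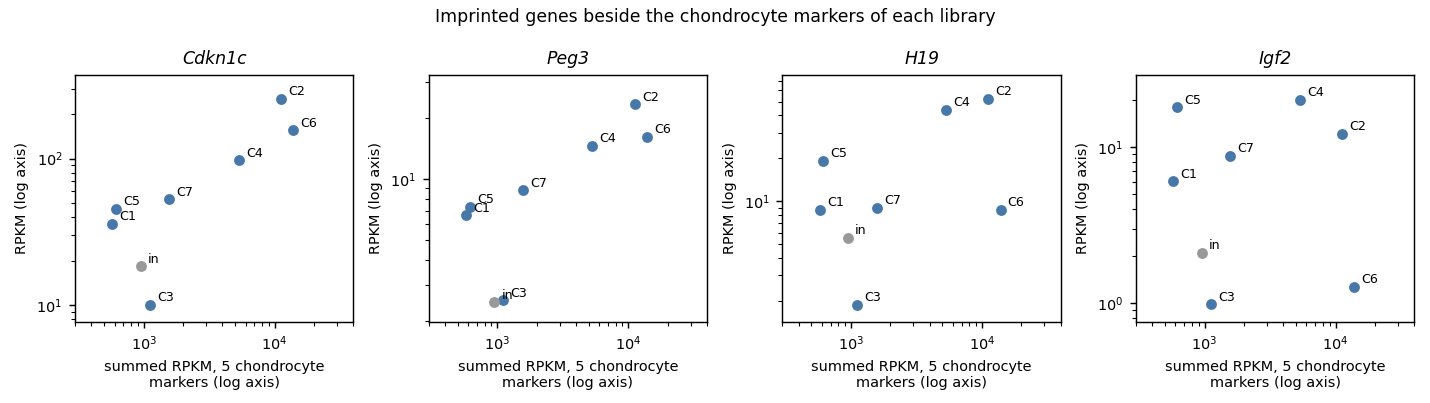
RPKM of Cdkn1c, Peg3, H19 and Igf2 (vertical log axes) against the summed RPKM of 5 chondrocyte markers (horizontal log axes), with 1 point for each sorted library (C1 to C7, blue) and the input (in, grey). C2, C4 and C6 are high on both axes for Cdkn1c and Peg3, whereas C6 lies at the right with 8.64 RPKM of H19 and 1.27 RPKM of Igf2.

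The 6 osteoblast markers summed to 483, 4076, 14779.8, 962, 5417, 15093 and 1136 RPKM in clusters 1 to 7 and 215 in the input, with Bglap, osteocalcin, the most abundant in clusters 1, 2, 3, 5 and 6 and Ibsp, bone sialoprotein, in the others. Cluster 3, lowest for 7 members, and cluster 6, second for Cdkn1c, thus held the highest sums, and the levels of Cdkn1c in them were 10.1 and 156 RPKM. The 5 markers of adventitial fibroblasts were highest in clusters 3 (705 RPKM) and 1 (576 RPKM) and lowest in cluster 6 (11.7 RPKM), and in these 3 libraries the most abundant was Ly6c1. Pericyte and smooth muscle markers, led by Acta2 except in cluster 3, where Rgs5 was higher, summed to 7.56 RPKM in cluster 6 and to between 24.9 and 99 in the other sorted libraries. Skeletal muscle markers, led by Acta1, summed to 108 RPKM in cluster 2, 60.6 in cluster 6 and 48.3 in cluster 3. Of their low members in these libraries, Pax7 had no count, Myf5 at most 1, Myod1 2 to 19, Chrna1 13 to 34 and Myh4 38 to 134 counts. Schwann cell markers reached 116 RPKM in cluster 2, of which 114 was S100b. Endothelial markers, led by Pecam1 except in cluster 3, where Tie1 was higher, summed to no more than 11.1 RPKM in any library. The part of these cells in the members' levels was not tested.

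Blood cell RNA was present despite the depletion. Erythroid markers, led by the globin Hba-a1 except in cluster 7, where Hbb-bs was higher, summed to 68516 RPKM in cluster 5, to between 1593 and 14564 in the other sorted libraries and to 689.6 in the input. Myeloid markers, led by S100a9, summed to between 8718 and 22114 RPKM in the sorted libraries and to 32656 in the input. With TMM scaling the input sum (20449) was below those of clusters 5 (27484) and 7 (21371). Lymphoid markers, led by Cd79a, summed to between 16.9 and 68.6 RPKM in the sorted libraries and to 148 in the input. Cluster 5, with the highest erythroid sum and the lowest total count, changed place among the sorted libraries with TMM for Igf2, Dlk1, Meg3, Peg3, Cdkn1c, Plagl1 and Grb10. Cluster 6 changed place for H19, Mest, Plagl1 and Grb10. The part of erythroid RNA in the levels of cluster 5 was not tested. The precision of the lowest values was limited by depth, as for Dlk1 in cluster 3, where 35 counts stood behind 0.228 RPKM.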

How the data were processed

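RNA-seq libraries of 7 sorted bone marrow populations and of input cells, 1 each, were analysed. The deposited tables hold raw counts of reads for each Ensembl gene, beside its exon positions and length. According to the Methods, reads were trimmed, aligned by TopHat2 to mm9 in Partek Flow 2.2 and quantified as RPKM. The deposited coordinates are instead those of GRCm38, since 96.3% of 23299 symbols start within 10 kb of RefSeq GRCm38.p6. The counting tool, strandedness and the treatment of reads shared by overlapping genes are not given in the sources used here. The labels name 1 RNA amount and the Methods another, so neither is given.

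RPKM was computed from total counts on genes (12833648 to 33238133 per sorted library) and exon length. The filter kept genes above 2 RPKM in 1 or more of the sorted libraries, and folds above 2 were taken on RPKM + 1, after the study's thresholds. Counts have exact Poisson intervals and ratios exact binomial intervals. edgeR 4.0.16 (TMM) and DESeq2 1.42.0 (R 4.3.3) gave scaling factors only, because populations without replicates allow no test. Python 3.11.15, numpy 2.4.6, pandas 2.3.3 and scipy 1.17.1 were used. The fold calls and intervals were tested on simulated data. Symbols matched 32462 genes, and 7 listed genes were matched by position (overlap of at least 0.5 in both directions).

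The members and gene lists were chosen with earlier results of these data known. Genes named are the members, the 2 genes most like each by Pearson r among genes above 2-fold, the 3 widest of each list, genes of the members' domains and the most abundant marker of each cell type. Also named, outside this rule, are Igf1r and Igf2r, the stromal markers Pdgfra, Pdgfrb and Cxcl12, and the low skeletal muscle markers. Alternatives were TMM, DESeq2 factors, totals without 3 loci, equal depth, a pseudocount of 0.1, other filters, a 4-fold threshold and leaving out cluster 5.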

Additional observations from a re-analysis of the deposited data

How the results depend on the processing

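Of 157 recomputed counts, 129 stayed within 1.5 times the count reported. Counts of 0 that stayed 0 were scored among these 129. The order of some neighbouring libraries did turn with TMM: cluster 4 over cluster 5 went from 1.12 to 0.847 for Igf2 and from 1.15 to 0.875 for Dlk1, and cluster 2 over cluster 6 from 1.08 to 0.843 for Grb10. With TMM factors, members above 2-fold of each other sorted library became 0 (6.1% of genes), those above 2-fold of input in all 7 became 1 (2.15% of genes), the highest libraries became cluster 4 for 1 (10.4%), cluster 5 for 2 (11.6%) and cluster 6 for 1 (20.9%), and cluster 5 was lowest for 0 (26.4%). DESeq2 size factors gave the same 6 values (0, 1, 1, 2, 1 and 0), beside 6.45%, 2.08%, 10.7%, 14%, 21.5% and 22.1% of genes. Totals that left out Rn18s-rs5, Lars2 and mmu-mir-689-2 gave 0 for a single library (7.15% of genes), cluster 4 highest for 1 (7.42%), cluster 5 highest for 2 (15.4%) and lowest for 0 (16.1%). With RPKM above 2 in every library, 6 members remained tested and all 6 exceeded 2-fold (68.8% of genes), 0 stood out in 1 library (3.11% of genes), 2 paternal and 7 maternal genes exceeded 2-fold, clusters 1 and 4 were each highest for 1 (19.6% and 9.51% of genes), cluster 3 was lowest for 4 (6.57% of genes) and cluster 6 for 1 (24.3%). The smaller counts there follow from the fewer genes tested. At 4-fold, 0 members stood out in 1 library (0.542% of genes), and 1 paternal and 1 maternal gene passed (15.7% of genes). Without the cluster 5 library, 14 pairs of members had r above 0.8. The count of lowest libraries was added after seeing the data. Of 691 recomputed levels, ratios and correlations, 515 were scored as unchanged and 176 as moved. Levels and ratios were scored by their counting interval, and the r of pairs of members by a fixed change in r.

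No paired analysis was possible because every group held a single library and nothing was tested. With 1 library each, intervals cover counting error only and neither sorting nor mouse-to-mouse variation was measured. The lowest levels rest on few counts.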
